A study of Mus musculus with 35 samples.

Results

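The comparison described here is the effect of a leucine-, isoleucine- and valine-free diet with chemotherapy on ribosome footprints of Ogfod1-targeted leukemia cells, over protein-coding genes. Its members were taken by genotype, treatment and assay from the labels: 5 of the 35 samples of the series, namely 2 treated mice (replicates 4 and 5, libraries 22 and 24) and 3 vehicle mice (replicates 3, 4 and 5, libraries 8, 9 and 10). No other treated sgOgfod1 mouse had a footprint library among the samples used here. Of 55487 genes listed, 18290 passed the low-count filter, and 11481 of these were protein-coding.

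The leukemia was driven by MLL-AF9, a fusion of Kmt2a with Mllt3, and its cells carried GFP. Both groups received cells with a guide RNA against Ogfod1 (sgOgfod1), so the guide is shared and the contrast says nothing about it. Per the labels, male recipients aged 8 to 10 weeks were given 1 M (mega) cells intravenously, from leukemia expanded ex vivo with SCF, IL-3 and IL-6 after harvest from a terminally ill mouse. Vehicle mice ate the standard amino acid (AA) diet and were injected with PBS. Treated mice ate the BCAA-free diet and received 5+3, which is cytarabine at 100 mg/kg on 5 days with doxorubicin at 3 mg/kg on the first 3 of them. Diet and drugs changed together, so their effects cannot be told apart, and the cells are those still in the marrow when the response to chemotherapy was greatest. Viable GFP-positive marrow cells were sorted, and each library came from 1 mouse. The sgScramble mice, 3 on vehicle and 4 treated in the same way, are used only for comparison.

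A ribosome footprint is the stretch of mRNA that a translating ribosome shields from nuclease, so its count per gene follows both the amount of an mRNA and how densely ribosomes occupy it. Ogfod1 hydroxylates a proline of the ribosomal protein Rps23 in the decoding centre. When amino acids run short, uncharged tRNA activates the kinase Gcn2, eIF2 is phosphorylated, general initiation falls and the transcription factor Atf4 is made from a leader with upstream reading frames; Atf4 then turns on genes for amino acid import, synthesis and tRNA charging. Cytarabine and doxorubicin damage DNA and block its replication, and the p53 pathway is the best known response to them.

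Promoter sequences are shown for genes that stand for the Atf4 pathway and for antigen presentation, groups whose called members moved one way and whose promoters were searched for a motif, chosen after their values were seen. Each sequence is part of the window before the RefSeq transcription start in GRCm38.p6, 5′ to 3′ on the gene's strand. Of the genes shown, Asns was not called in the footprints. Capitals mark TGATGNAA, the letters of a C/EBP-ATF response element, on either strand in Slc7a11 (chr3:50443614-50443713, minus strand), Aars (chr8:111033692-111033841, plus strand) and Asns (chr6:7693210-7693309, minus strand). In B2m (chr2:122147527-122147686, plus strand) capitals mark GAAANNGAAA, the core of an interferon-stimulated response element, searched on both strands too.
Slc7a11: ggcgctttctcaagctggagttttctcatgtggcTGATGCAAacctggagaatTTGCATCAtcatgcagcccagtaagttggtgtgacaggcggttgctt
Aars: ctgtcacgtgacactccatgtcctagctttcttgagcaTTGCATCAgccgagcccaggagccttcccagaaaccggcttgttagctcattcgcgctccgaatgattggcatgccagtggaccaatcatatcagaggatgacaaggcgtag
Asns: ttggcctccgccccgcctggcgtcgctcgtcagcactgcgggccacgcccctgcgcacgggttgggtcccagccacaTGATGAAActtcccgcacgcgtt
B2m: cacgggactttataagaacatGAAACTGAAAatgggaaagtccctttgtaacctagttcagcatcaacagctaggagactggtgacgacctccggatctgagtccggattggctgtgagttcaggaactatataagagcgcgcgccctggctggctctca
TGATGNAA lay in 3.45% of 32851 RefSeq windows of 250 bases and in at least 1 window of 3.91% of 27025 genes. Counted by gene in the same way, it lay in 7 of 27 matched members of the Atf4 list (Aars, Asns, Herpud1, Nupr1, Pck2, Slc7a11 and Vldlr). GAAANNGAAA lay in 2.98% of the windows, in 3.46% of the genes and in 4 of 21 matched antigen presentation genes (B2m, Ctss, H2-T22 and H2-T23). The motifs do not overlap each other in the windows shown, and a match describes the letters only.

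The 5 libraries held 7.78, 5.71, 14.6, 9.85 and 9.44 M counts (vehicle replicates 3, 4 and 5, then treated replicates 4 and 5; all 5-library values below follow this order). Protein-coding genes took 53.07 to 56.28% and pseudogenes 26.19 to 31.18% of them. Levels are CPM (counts per 1 M counts) on TMM-scaled library sizes, and 3 counts, used as the floor, came to 0.185 to 0.496 CPM. Of the leukemia and myeloid genes chosen as markers, Meis1 stood at 35.9 to 40.1 CPM, Hoxa9 at 16.3 to 24.3 CPM and Ptprc (CD45) at 299.9 to 366 CPM. Hoxa10, Spi1 and Itgam lay within 19.9 to 35.2, 113 to 166 and 266 to 447 CPM. The others were less steady. Cd34 read 27.4, 42, 44.8, 0.702 and 3.4 CPM, Kit 49.4, 90.1, 55.2, 16.3 and 13.3 CPM, and Mpo 979, 543, 600, 698 and 273 CPM. The T cell gene Cd3e stayed below 0.5 CPM. Ogfod1 itself stood at 2.62, 2.98, 1.67, 2.91 and 1.44 CPM; both groups carry the guide, and the groups overlapped (log2 fold change -0.06 ± 0.32 (SE), edgeR adjusted p = 0.942).

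Footprints of 307 protein-coding genes were higher in treated mice and those of 576 lower, which is 2.67% and 5.02% of the 11481 tested (7.69% in either direction; these shares are the background for the list counts below; over all 18290 genes the shares were 4.65%, 3.56% and 8.22%; edgeR quasi-likelihood test, adjusted p under 0.05). Among genes called higher the median log2 fold change was 0.739, and among those called lower it was -0.879; 117 rose and 257 fell by at least 1 on the log2 scale. Groups did not overlap for 877 of the 883 calls, but the calls used the same values, so this adds no support to them. Of all protein-coding genes 12.2% lay wholly higher and 24.2% wholly lower. The median gene stood at -0.0811. When the scaling used protein-coding genes alone, all values moved up by 0.0798 and the calls became 497 higher and 444 lower, so 34.8% higher in the one and 52.8% in the other. The direction of genes with a change near 0 depends on this choice, while none of the 883 called genes changed sign under any alternative in which it was tested.

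**Figure D1:**
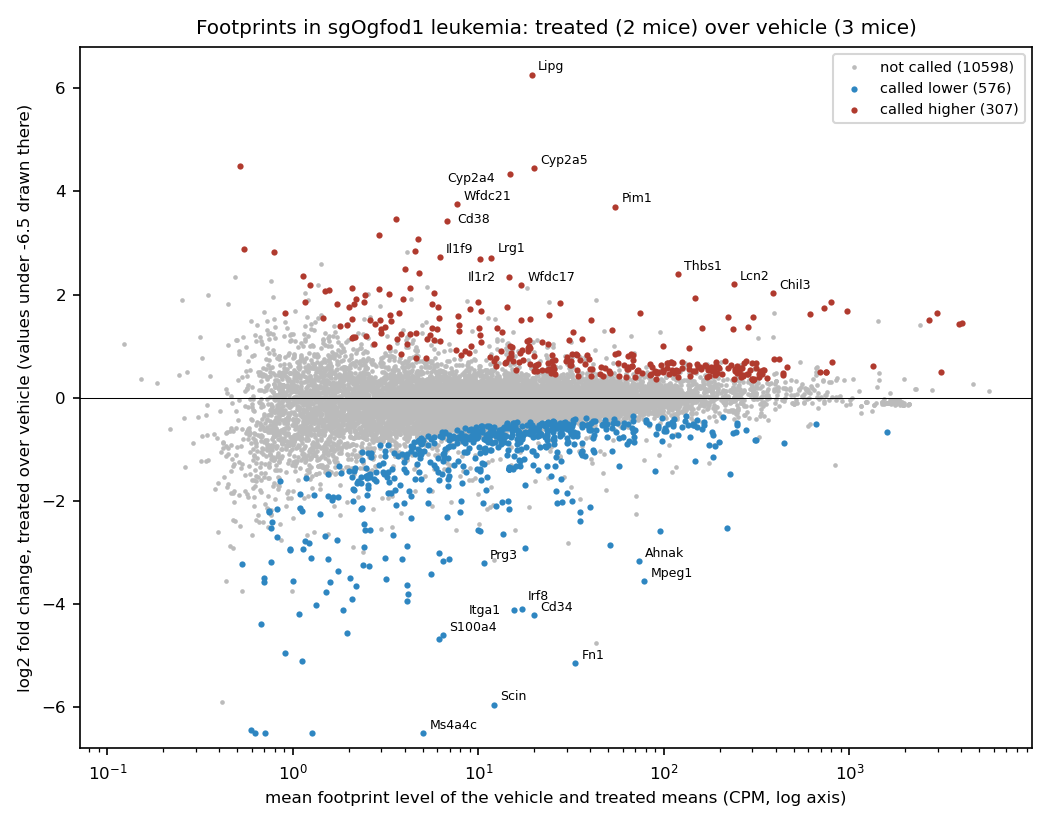
Footprint level of each protein-coding gene (x, the mean of the vehicle and treated means, CPM, log axis) against its log2 fold change, treated over vehicle sgOgfod1 (y). Red points are the 307 genes called higher, blue points the 576 called lower and grey points the 10598 not called; 4 genes below -6.5 are drawn at -6.5. Named genes reach from 6.26 (Lipg) down to the lower edge (Ms4a4c).

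Library numbers did not overlap between the groups (8 to 10 against 22 and 24), and the labels do not say whether a number marks a day or a run. A term for library numbers from 17 up can be estimated only because the treated sgScramble group spans both sides; with it 4 genes were called higher and 1 lower, all of them among the 883, and 1309 had an unadjusted p under 0.05. Wfdc21, Cd38 and Ahnak were among the 5. The term assumes the same offset in sgOgfod1 libraries. With it the median log2 change was 0.515 for cytosolic ribosomal proteins (0.47 without it), -0.537 for antigen presentation (-0.66) and 0.594 for the Atf4 list (0.66). It was -1 for mitochondrially encoded genes (-0.93), 1.52 for tissue macrophage markers (1.35) and 0.785 for the granulocyte list (1.29). Some other medians moved close to 0, such as chemokines and receptors (-0.0305 with the term, -0.502 without it) and lysosome and autophagy (-0.0937 and -0.242). Others moved away from 0, such as monocyte maturation (-0.723 and -0.629). Each of these lists had fewer calls with the term. Within the 5 sgOgfod1 libraries, library number and treatment cannot be told apart. With only these 5 libraries in the fit 39 genes were called higher and 74 lower. Single mice also weighed on the counts: without vehicle replicate 3 there were 170 higher and 361 lower, without vehicle replicate 5 192 and 387, without treated replicate 4 225 and 340, and without treated replicate 5 289 and 384.

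Genes of neutrophil granules and of the granulocyte surface were among those that rose. Of 39 members tested of a granulocyte list, 18 rose and 1 fell, against 2.67% and 5.02% of all protein-coding genes, and the list's median log2 fold change was 1.29 against -0.0811 over all genes. Wfdc21, a small whey-acidic-protein family member (chr11:83746940-83752642, plus strand), read 1.19, 0.992 and 0.988 CPM in the vehicle libraries and 14.5 and 14 CPM in the treated ones. The pair of treated mice were alike and far above all vehicle mice (3.75 ± 0.32, adjusted p = 3.15e-05). Groups without overlap were a condition for naming the genes with the largest changes, so it adds no support to them.
Lcn2, an iron-siderophore binding granule protein, rose from 99, 45.1 and 110 CPM to 450.1 and 334 CPM (2.20 ± 0.36, adjusted p = 0.00736). Chil3, a chitinase-like secreted protein of maturing myeloid cells, rose from 168, 128 and 162 CPM to 536 and 707 CPM (2.02 ± 0.31, adjusted p = 0.00504). Il1r2, the decoy receptor for interleukin 1, rose from 5.48, 3.31 and 5.31 CPM to 21.4 and 27.7 CPM (2.34 ± 0.24, adjusted p = 0.000134). In each of these genes vehicle replicate 4 was the lowest library, and the treated mice lay above every vehicle mouse.
The serine proteases of primary granules moved less: Prtn3 went from 306, 293 and 273 CPM to 421 and 560 CPM (0.76 ± 0.14, adjusted p = 0.00485), and Elane rose by 0.62. The member that fell was Lyz2, a lysozyme shared with monocytes (-2.52). Stfa family members rose by 1.42 to 1.85, but these are near-identical copies whose reads may be split among them.
List medians per library, relative to the mean of the vehicle mice, were 0.201, -0.404, 0.103, 1.717 and 0.55, so treated replicate 4 stood further out. Without it 5 members were called higher, and without treated replicate 5 24 were; with only the 5 libraries 4 were, and with the library-number term 1. The summed level of the list was 10650 to 16230 CPM in vehicle mice and 41270 and 23480 CPM in treated ones; whether these come from the leukemia or from other granulocytes in the sort was not tested. Lower or higher numbers of a cell type and lower or higher RNA per cell cannot be told apart in such bulk samples.

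Other genes at the upper end belong to inflammation, signalling and lipid handling. Lipg, an endothelial-type phospholipase, stood at 0.595, 0.165 and 0.556 CPM in vehicle mice and at 46.1 and 30.4 CPM in treated mice (6.26 ± 1.03, adjusted p = 0.0099), the largest rise among the genes named. Pim1, a survival kinase induced by STAT5, read 5.48, 3.31, 12.7, 59.4 and 145 CPM (3.70 ± 0.64, adjusted p = 0.0123), and without treated replicate 5 its adjusted p was 0.0569. Cd38, an NAD-consuming ectoenzyme of maturing blood cells (chr5:43868553-43912375, plus strand), read 0.476, 1.65, 1.3, 11.1 and 13.6 CPM (3.43 ± 0.38, adjusted p = 0.000324). Each of the 3 separated the groups without overlap, as the rule that named them required.
Il1f9, an interleukin 1 family cytokine, rose from 1.19, 1.65 and 1.91 CPM to 14 and 7.62 CPM (2.72 ± 0.34, adjusted p = 0.000348). Lrg1, a leucine-rich secreted glycoprotein, rose from 3.93, 1.65 and 3.4 CPM to 24 and 17 CPM (2.71 ± 0.34, adjusted p = 0.000796). Thbs1, a matrix and platelet glycoprotein, rose from 46.5, 29.4 and 37.1 CPM to 231 and 168 CPM (2.40 ± 0.33, adjusted p = 0.0038). These secreted products were higher in both treated mice, as the same rule required.
Wfdc17, a paralog-rich neighbour of Wfdc21, rose by 2.19 ± 0.40 (16.7 and 39.7 CPM treated against 3.47 to 8.09 CPM). C4b, a complement component, read 4.52, 1.32, 2.22, 8.83 and 26.4 CPM (2.69 ± 0.58, adjusted p = 0.0208) and was not called without treated replicate 5, vehicle replicate 4 or vehicle replicate 5 (adjusted p 0.109, 0.0521 and 0.0794). Cyp2a5, a cytochrome P450, rested on 1 mouse: it read 1.9, 0.992, 1.98, 2.81 and 73.8 CPM, and its log2 change of 4.46 ± 1.08 (adjusted p = 0.0423) was 0.70 without treated replicate 5 (adjusted p = 0.287). Its near-copy Cyp2a4 had the same pattern (4.34), and reads of the 2 genes may not be separable.

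**Figure D2:**
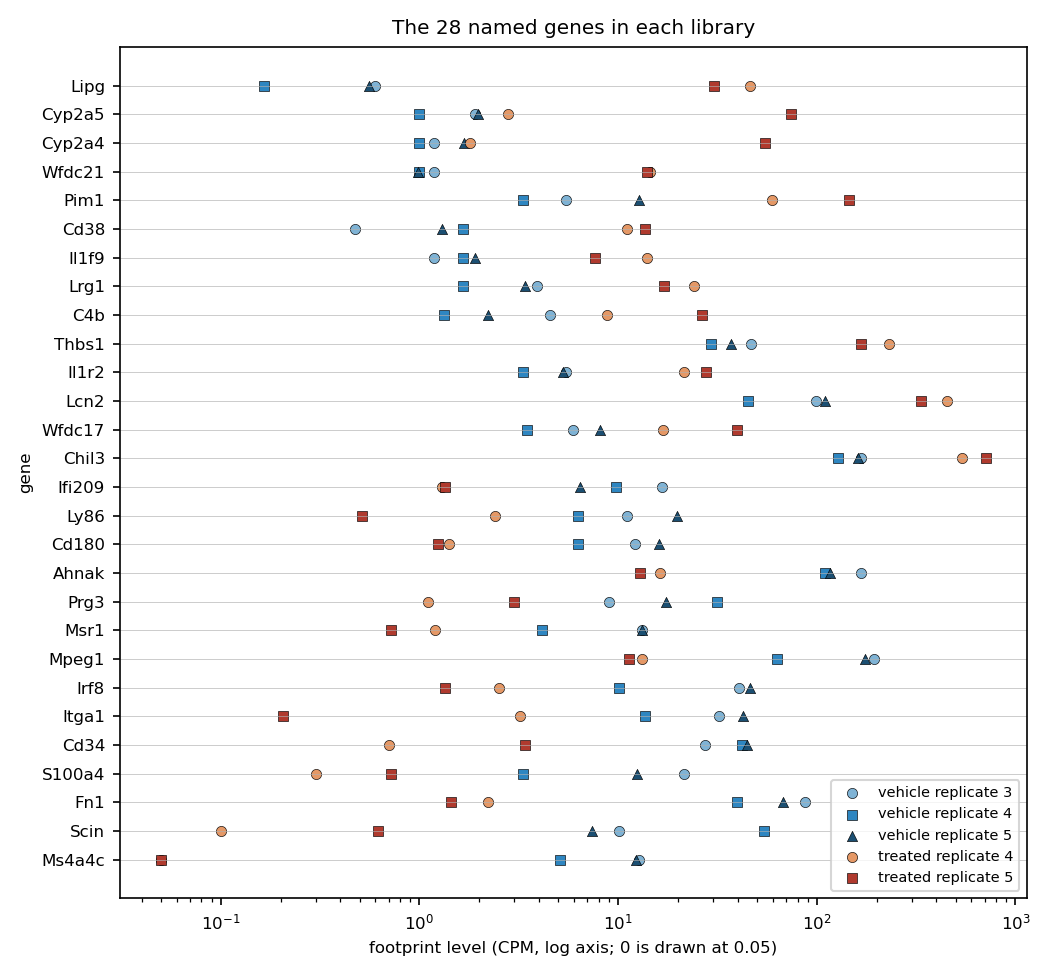
Footprint level (x, CPM, log axis; 0 drawn at 0.05) of the 28 genes with the largest called changes, 1 line per gene, with 3 vehicle and 2 treated libraries as separate points. The treated points lie beyond every vehicle point in each line, as the rule that chose the genes requires, and Cyp2a5 shows 1 treated mouse next to the vehicle mice.

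Genes of monocyte maturation were among those with the largest drops. Of 38 members of such a list, 15 fell and 2 rose, against 5.02% and 2.67% of all protein-coding genes, with a median log2 change of -0.63. Without treated replicate 4 or 5 the number that fell was 10 or 9, with only the 5 libraries 3, and with the library-number term 0 (median -0.723). Ms4a4c, a membrane protein of inflammatory monocytes (chr19:11404770-11427246, plus strand), had 338 counts over the vehicle mice (12.7, 5.12 and 12.4 CPM) and 0 over both treated mice, which is at least 32.6-fold lower with a floor of 3 counts per library (adjusted p = 0.000117). The list's median is the same with Ms4a4c at that bound. Cx3cr1, the fractalkine receptor, had 132 counts against 3, a treated-to-vehicle ratio of 0.0354 with a 95% counting interval from 0.00721 to 0.106.
Mpeg1, the pore-forming perforin-2 of phagocytes, fell from 193, 62.8 and 176 CPM to 13.2 and 11.3 CPM (-3.56 ± 0.49, adjusted p = 0.00458). Irf8, the transcription factor that directs progenitors to the monocyte fate, fell from 40.8, 10.1 and 46.1 CPM to 2.51 and 1.34 CPM (-4.09 ± 0.72, adjusted p = 0.0125); leaving out either treated mouse gave adjusted p 0.0546 (replicate 4) and 0.0826 (replicate 5). Klf4, a further monocyte regulator, had 93 counts over the vehicle mice and 4 over the treated mice, a ratio of 0.067 with a 95% counting interval from 0.0179 to 0.177 (adjusted p = 0.00741). Vehicle replicate 4 was the lowest of the vehicle mice in Ms4a4c, Mpeg1, Irf8 and Klf4, yet above both treated mice.
Msr1 and Cd180, a scavenger receptor and a Toll-like receptor homolog, fell (-3.43 ± 0.55 and -3.16 ± 0.45). Ly86, the secreted partner of Cd180, read 11.1, 6.28, 19.7, 2.41 and 0.515 CPM (-3.12 ± 0.59, adjusted p = 0.0113) and lost its call without treated replicate 5 (adjusted p = 0.054). Ccr2, the receptor that lets monocytes leave marrow, fell (-2.58), as did Ms4a6b, a relative of Ms4a4c (-2.0), and Csf1r, the macrophage colony-stimulating factor receptor (-2.05). Tlr4, the endotoxin receptor, went the other way, from 6.79, 4.3 and 5.8 CPM to 12.8 and 16.2 CPM (1.34 ± 0.19, adjusted p = 0.00102), as did Cd300lf (1.29).
Of 26 myeloid fate transcription factors 5 fell and 0 rose, and besides Irf8 and Klf4 these were Irf5 (-2.22), Runx1 (-0.68) and Cebpa (-0.67). Interferon-inducible Ifi209 fell from 16.7, 9.75 and 6.42 CPM to 1.3 and 1.34 CPM (-3.02 ± 0.44, adjusted p = 0.00186), but of 54 interferon-stimulated genes 4 fell and 2 rose, close to the shares over all protein-coding genes. Those with the smallest p were Slfn5 (-2.04), Ifi27l2a (-3.10) and Ifitm2 (1.01), besides Psmb9 below.

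Some markers of resident marrow macrophages rose. Of 13 tested members of a tissue macrophage list, 5 rose and 0 fell, against 2.67% and 5.02% of all protein-coding genes, and all 13 had a log2 change above 0, with a median of 1.35. The calls rested on single mice: 1 member was called without treated replicate 4 (median 0.872), 1 without vehicle replicate 5, 1 with only the 5 libraries and 0 with the library-number term. C1qa, a chain of complement C1q, read 2.74, 2.64, 2.16, 11.9 and 5.46 CPM (1.82 ± 0.37, adjusted p = 0.00987). Cd5l, an apoptosis inhibitor secreted by macrophages, read 1.79, 1.32, 0.926, 5.11 and 5.36 CPM (2.02 ± 0.43, adjusted p = 0.00996). Siglec1, a sialic acid receptor of macrophages, rose by 1.60. The summed level of all 20 listed markers was 194.2 to 275.1 CPM in vehicle mice and 497.1 and 328.5 CPM in treated ones, with 0 of them at 0 throughout. In treated against vehicle sgScramble cells 10 of the 13 rose, with a median of 3.15. The part of such cells in the other changes was not tested.

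More progenitor and stem cell surface genes fell than rose, and Hoxa9 and Meis1 were not called. Of 26 progenitor surface markers 13 fell and 4 rose (median -0.63), and of 33 genes of the MLL-AF9 programme and stemness 10 fell and 0 rose (median -0.25), against 5.02% lower and 2.67% higher over all protein-coding genes. Without treated replicate 4 or 5 the numbers that fell were 7 or 8 and 4 or 5, with only the 5 libraries 2 and 2, and with the library-number term 0 and 0. Cd34, a sialomucin of progenitors (chr1:194938819-194961279, plus strand), fell from 27.4, 42 and 44.8 CPM to 0.702 and 3.4 CPM (-4.22 ± 0.52, adjusted p = 0.00248). Kit, the stem cell factor receptor, fell from 49.4, 90.1 and 55.2 CPM to 16.3 and 13.3 CPM (-2.12 ± 0.36, adjusted p = 0.00829).
Cd93, a lectin-like receptor of leukemia stem cells, fell (-1.32 ± 0.16), as did the interleukin 6 receptor Il6ra (-1.59 ± 0.26), the signalling receptor Cd48 (-0.96) and the survival factor Bcl2 (-1.53 ± 0.36). The fusion's direct targets Hoxa9 and Meis1 had log2 changes of -0.03 and 0.02 that did not pass the test. The members that rose were Cd38, Cd9 (1.15), and the near-identical cytokine receptor subunits Csf2rb and Csf2rb2 (0.84 and 0.85), whose reads may be shared.
Basophil genes rested on 1 vehicle mouse. Of 13 tested members of a basophil, mast cell and eosinophil list 1 fell, Prg3 (9.05, 31.6, 17.4, 1.1 and 2.99 CPM; -3.21 ± 0.59, adjusted p = 0.0118), and the median was -2.10, or -0.68 without vehicle replicate 4. That mouse had 826.2 CPM in the summed markers and 39.5 CPM of Mcpt8, a basophil protease, against 146.7 and 236.9 CPM and 3.45 and 4.45 CPM in the other vehicle mice and 99.29 and 127.2 CPM and 4.41 and 3.71 CPM in the treated mice. Scin, an actin-severing protein, also peaked there (10.1, 54.2, 7.35, 0.1 and 0.618 CPM; -5.95 ± 1.29, adjusted p = 0.027), and its call was lost without either treated mouse (adjusted p 0.141 and 0.116).

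Adhesion and cytoskeletal genes were among those with large drops from a high level. Fn1, fibronectin (chr1:71585520-71653200, minus strand), fell from 87.6, 39.7 and 67.5 CPM to 2.21 and 1.44 CPM (-5.15 ± 0.69, adjusted p = 0.00448). Ahnak, a giant scaffold protein at the membrane (chr19:8989284-9076914, plus strand), fell from 168, 110.1 and 117 CPM to 16.2 and 12.9 CPM (-3.17 ± 0.24, adjusted p = 3.32e-05). Both kept their calls when any 1 of the 5 libraries was left out.
S100a4, a calcium-binding motility protein, read 21.4, 3.31, 12.5, 0.301 and 0.721 CPM (-4.60 ± 0.86, adjusted p = 0.0131) and was not called without treated replicate 4 or 5 (adjusted p 0.0896 and 0.0706). Itga1, a collagen-binding integrin subunit, fell from 32.3, 13.7 and 42.4 CPM to 3.21 and 0.206 CPM (-4.12 ± 0.72, adjusted p = 0.0119). Of 33 integrin and matrix genes 7 fell and 3 rose (median -0.54), with the integrin subunit Itga4 at -0.76, and of 30 giant cytoskeletal linkers Ahnak fell and 3 rose (Syne1, Flna and Lyst, by 0.97, 0.70 and 0.59).

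Cytosolic ribosomal proteins were higher as a list, in sgScramble cells too, and some initiation factors also rose. Of 79 cytosolic ribosomal proteins 49 rose and 0 fell, all 79 had a log2 change above 0 (range 0.12 to 0.69), and the median was 0.47. Rpl34, a large-subunit protein, read 149.8, 155, 148, 236 and 230.3 CPM (0.63 ± 0.10, adjusted p = 0.00161). Rpl17, Rps15a and Rps21 rose by 0.66, 0.67 and 0.65. Rps23, the substrate of Ogfod1 (chr13:90922958-90924950, plus strand), read 246, 248, 264, 339 and 415 CPM (0.58 ± 0.12, adjusted p = 0.00692). Spread among vehicle mice was small beside the shift, with list medians of -0.038, -0.053, 0.091, 0.372 and 0.51 by library.
Ribosomal proteins took 3.15, 3.31 and 3.53% of the counts of protein-coding genes in vehicle mice and 3.9 and 4.66% in treated mice. The count of members called depended on the libraries and on the fit, with 10 higher without treated replicate 5, 19 without vehicle replicate 3, 29 without vehicle replicate 4, 2 with only the 5 libraries and 0 with the library-number term, while the median stayed between 0.375 and 0.55 over all alternatives. Their mRNA in the same mice had a median log2 ratio of 0.016, and the median change in translation efficiency, footprints relative to mRNA, was 0.557. Only 1 member, Rpl10, was called for efficiency. In treated against vehicle sgScramble cells 36 of the 79 members rose and 0 fell, with a median footprint change of 0.297. The test of the difference between genotypes called 0 members. Processed pseudogenes of ribosomal proteins are many and hold near-identical sequence, so reads may be split between them.
Of 21 elongation and termination factors 2 rose and 1 fell. Elongation factor Eef1a1, which carries aminoacyl-tRNA to the ribosome, rose by 0.50 ± 0.14, and Eef1b2, its exchange factor, by 0.55 ± 0.12. Eef2k, the kinase that inhibits elongation factor 2, fell (-0.49 ± 0.14), and its call was kept in 4 of 12 alternatives. Of 41 initiation factors 6 rose and 0 fell (median 0.20), against 2.67% higher and 5.02% lower over all protein-coding genes. Among those that rose were Eif2s2 (0.69 ± 0.14), Eif1 (0.60 ± 0.15), Eif3e (0.55 ± 0.12) and Eif3k (0.50). Of 78 mitochondrial ribosomal proteins 3 rose and 0 fell, Mrpl52, Mrps23 and Mrpl17 (0.78, 0.51 and 0.42), which is near the share over all protein-coding genes. Of 68 ribosome biogenesis factors and 77 nuclear subunits of oxidative phosphorylation, 0 were called in either direction in edgeR's test, with medians of 0.09 and 0.07. Nop56 and Ncl of the former (0.48 and 0.34) and Ndufs6 and Ndufa5 of the latter (0.44 and 0.45) had the smallest p and did not pass. Nor did any of 14 eIF2 kinase and phosphatase genes, of which Eif2ak1 and Ppp1cb stood at -0.42 and 0.28.

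Genes of the Atf4 response rose in part, and more in 1 treated mouse than in the other. Of 33 tested, 9 rose and 0 fell, with a median of 0.66. Slc7a11, the cystine importer (chr3:49892526-50443614, minus strand), whose promoter above holds the motif on both strands, read 0.833, 0.827, 1.17, 7.12 and 9.89 CPM (3.08 ± 0.35, adjusted p = 0.000236). Atf4 (chr15:80255184-80257541, plus strand) read 16.5, 12.7, 13.3, 25.4 and 34.3 CPM (1.07 ± 0.20, adjusted p = 0.00446). In both genes each treated mouse lay above all vehicle mice.
Slc3a2, the heavy chain shared by amino acid exchangers, read 39.8, 40.8, 39.8, 52.7 and 93.9 CPM (0.87 ± 0.17, adjusted p = 0.0067). The glutamine carrier Slc1a5 rose by 0.55 ± 0.10, the transcription factor Atf5 by 1.51, the mitochondrial folate enzyme Mthfd2 by 1.27 and the serine synthesis enzyme Psph by 0.98. Stc2, Slc1a4, Sesn2 and Ddit3 had values of 2.59, 2.19, 1.12 and 1.48 that did not pass (adjusted p 0.063, 0.0751, 0.0666 and 0.0971).
Of 40 aminoacyl-tRNA synthetases 6 rose and 0 fell. The median was 0.17, the range -1.31 to 0.85, and 26 members were above 0. Those that rose were Cars (0.85 ± 0.18), Nars and Tars (0.63 each), Aars (0.54), Gars (0.52) and Farsb (0.39). The synthetases that charge tRNA with the missing amino acids were not called; Lars stood at 0.60 (adjusted p = 0.0521) and Iars at 0.40 (adjusted p = 0.131). Aars, with the motif in its promoter, read 93.7, 88.9, 87.4, 99.1 and 163 CPM.
Atf4-list medians by library were -0.013, 0, -0.037, 0.173 and 0.944, so treated replicate 5 carried most of the shift. Without that mouse 2 members were called (median 0.17), and without treated replicate 4 18 were (median 1.11); with only the 5 libraries 3 were, and with the library-number term 0. Synthetase calls were 0 without treated replicate 5. Of the matched members, 2 of 7 called ones held TGATGNAA, Slc7a11 and Aars. Asns, whose promoter is shown too, was not called. Of 26 genes of branched-chain amino acid breakdown 2 fell, Bckdha (-0.79 ± 0.19) and Mccc2 (-1.13 ± 0.30), and 0 rose, which is near the 5.02% called lower over all protein-coding genes; without either treated mouse 0 were called. Of 43 genes of mTORC1 and amino acid sensing 1 fell, Ulk1 (-0.83 ± 0.24), and its call was kept in 2 of 12 alternatives.

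**Figure D3:**
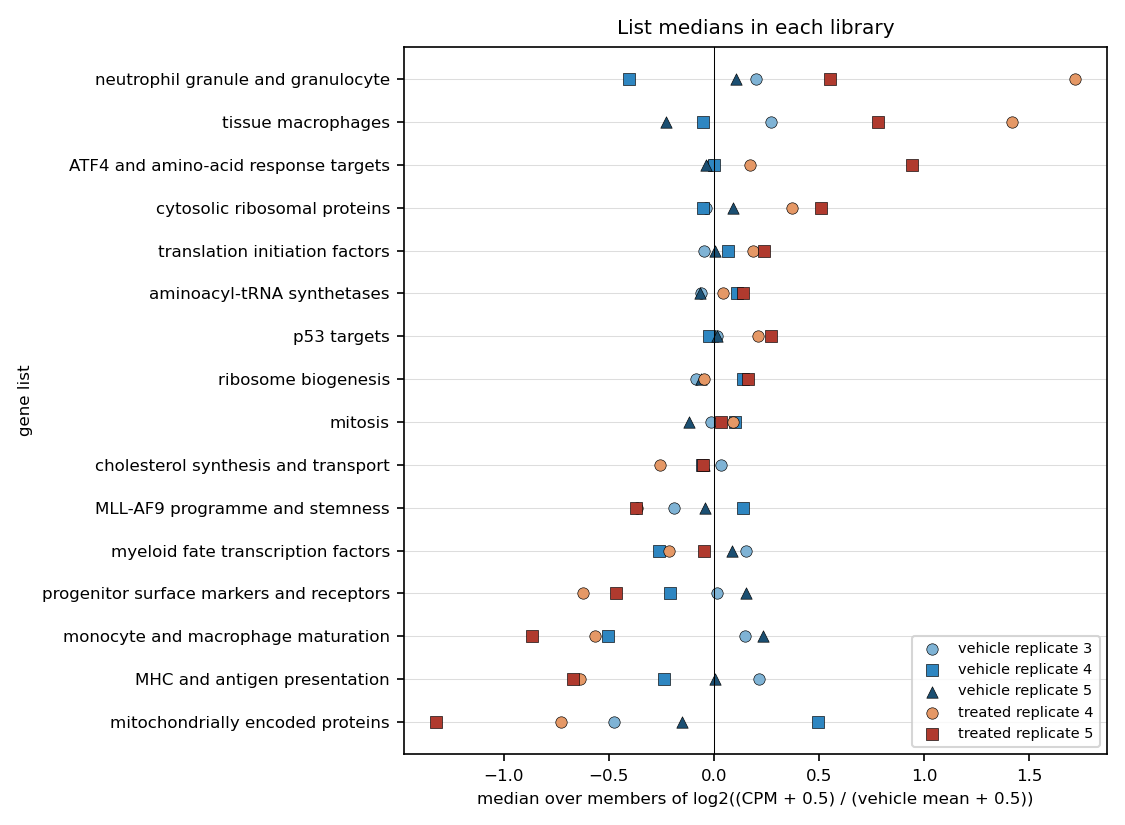
Median log2 level of each gene list (y) in each of the 5 libraries (x, relative to the mean of the vehicle libraries, pseudocount 0.5 CPM), vehicle and treated libraries as separate points. Ribosomal protein medians are close within each group, the Atf4 list is high in treated replicate 5 (0.944) and at 0.173 in treated replicate 4, and mitochondrially encoded genes are spread among the vehicle mice.

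Antigen presentation genes fell together. Of 25 tested, 17 fell and 0 rose, against 5.02% of all protein-coding genes called lower, and the median was -0.66. H2-K1, a classical class I heavy chain (chr17:33996017-34000347, minus strand), read 341, 247, 287, 179 and 181 CPM (-0.69 ± 0.15, adjusted p = 0.00862). Tap2, part of the peptide transporter, read 132, 114, 121, 75.2 and 80.9 CPM (-0.64 ± 0.13, adjusted p = 0.00642). Both treated mice lay below all vehicle mice in both genes.
Tapbp, which bridges that transporter to class I, fell (-0.77 ± 0.17), as did B2m, the light chain of class I (-0.60), and the protease Ctss, which trims the class II invariant chain, changed by -2.39. Class II genes H2-Aa, H2-Ab1, H2-Eb1 and Cd74 had values of -0.67, -0.33, -1.12 and -0.60 that did not pass, while H2-DMa and H2-Oa, which control class II loading, fell (-1.02 and -1.56). The immunoproteasome subunits Psmb10 and Psmb9 fell (-0.89 and -0.64). H2-Q6, H2-Q7 and other class I genes are near-copies, and their reads may be shared.
List medians by library were 0.215, -0.238, 0.003, -0.637 and -0.669. Without treated replicate 4 or 5 the number called lower was 8 or 6, without vehicle replicate 3 or 5 9 or 11, with only the 5 libraries 1 and with the library-number term 0, while the median ranged from -0.778 to -0.537 over the alternatives. GAAANNGAAA was in 4 of 15 matched members called.

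Mitochondrially encoded genes were low in both treated mice. All 13 had log2 changes below 0 (median -0.93), and 4 of them fell: mt-Nd5, mt-Cytb, mt-Co1 and mt-Co3. mt-Cytb, the cytochrome b of complex III, read 194, 332, 233, 131 and 96.3 CPM (-1.16 ± 0.25, adjusted p = 0.0153), and mt-Co1, the catalytic subunit of cytochrome oxidase, fell by 0.88 ± 0.21. Vehicle replicate 4 stood high, with list medians of -0.475, 0.494, -0.153, -0.726 and -1.319 by library. Without treated replicate 5 0 were called, without vehicle replicate 3 10, and with only the 5 libraries or with the library-number term 0.
The mRNA of the same mice had a median log2 ratio of -0.80 for this list, and the median change in efficiency was -0.18. In sgScramble cells the same list had a median of 0.07 with 0 called, and the test of the difference called 0 members.

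Few DNA damage and cell cycle genes were called. Of 37 p53 targets 3 rose and 0 fell (median 0.25): Phlda3, an inhibitor of Akt (0.714, 0.331, 0.432, 1.91 and 1.75 CPM; 1.86 ± 0.44, adjusted p = 0.0164), Zmat3 (1.53 ± 0.42) and Plk3 (1.19 ± 0.34). Cdkn1a, the p21 cell cycle inhibitor, and Mdm2 had values of 0.96 and 0.44 that did not pass (adjusted p 0.06 and 0.0817). Of 61 mitosis genes 1 rose (Cenpf, 0.50 ± 0.15) and 0 fell, and of 59 replication genes 2 rose and 1 fell (Prim2, -0.40). Besides Rrm2 the one that rose was the cyclin Ccnd2 (1.59), whose groups overlapped. Over 12 alternatives the call was kept in 0 for Prim2 and in 3 for Plk3. Of 49 DNA repair genes 2 fell, the strand-break sensor Parp1 (-0.59) and Atrip, the partner of the kinase Atr (-0.73).
Rrm2, the ribonucleotide reductase subunit that makes deoxynucleotides, rose from 130.4, 106 and 127 CPM to 160.1 and 187 CPM (0.52 ± 0.12, adjusted p = 0.014). Abcb1b, a drug efflux pump that exports doxorubicin, fell from 62 counts to 3, a ratio of 0.0754 with a 95% counting interval from 0.0151 to 0.231 (adjusted p = 0.00126). Of 39 cholesterol genes 1 rose and 2 fell; the one that rose was the efflux pump Abca1 (1.5 ± 0.41), and Npc2, a lysosomal cholesterol carrier, fell (-0.72).
Of 44 lysosomal and autophagy genes 7 fell and 1 rose, with Hexa (-0.74 ± 0.11), Ctsc (-1.58 ± 0.29) and Lamp1 (-0.53) among those that fell.
Calls in signalling and stress lists are to be read against 2.67% higher and 5.02% lower over all protein-coding genes. Of 19 JAK-STAT, Pim and Myc genes 3 rose and 2 fell: besides Pim1, the kinase Jak3 read 13.5, 17, 13.1, 25.5 and 25.1 CPM (0.81 ± 0.17, adjusted p = 0.00781) and Stat3 rose by 0.45, while Stat5b and Stat5a fell (-0.74 and -0.62). Of 42 genes of the unfolded protein response and heat shock 2 fell: Ern1, the endoplasmic reticulum stress sensor, read 12.3, 11.9, 11.3, 3.81 and 5.56 CPM (-1.33 ± 0.18, adjusted p = 0.000769), and the chaperone Calr changed by -0.67. Of 29 NF-kB and inflammatory genes 3 rose: the receptor Clec4e (0.86), the NF-kB inhibitor Nfkbia (0.54) and Marcksl1 (0.86).
Of 15 chemokine and receptor genes 4 fell and 0 rose. Among them, besides Cx3cr1 and Ccr2, was Cxcr4, the receptor that retains cells in marrow, which read 245, 202, 224, 150 and 132 CPM (-0.66 ± 0.16, adjusted p = 0.0155). The treated mice lay below all vehicle mice in Cxcr4.
Of 24 immediate early genes Jund rose (0.77) and Klf4 and Fos fell (Fos with a log2 change of -1.54). Jund kept its call in 3 of 12 alternatives. Of 15 polyamine genes the transporter Atp13a2 fell (-1.06), of 22 amino acid transporters 3 rose, all named above, and Slc15a4 fell (-0.77), and of 8 megakaryocyte and platelet genes Thbs1 rose and Itgb3 fell (-1.09). In the lists of selenoproteins and of erythroid, stromal and B cells 0 of 20, 10, 10 and 2 tested members were called. The smallest p belonged to Dio2 and Txnrd1 (-0.66 and 0.24) and to Hbb-bt and Slc4a1 (-2.44 and -2.28). In the stromal and B cell lists it belonged to Pdgfrb and Pecam1 (-1.59 and 0.41) and to Xbp1 and Cd79b (0.38 and -0.59). With no low-count filter the erythroid list had 2 lower, the stromal list 1 lower and the B cell list 1 higher. Summed markers of B and plasma cells, tested or not, read 71.9, 58.52, 74.66, 84.75 and 168 CPM.

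**Figure D4:**
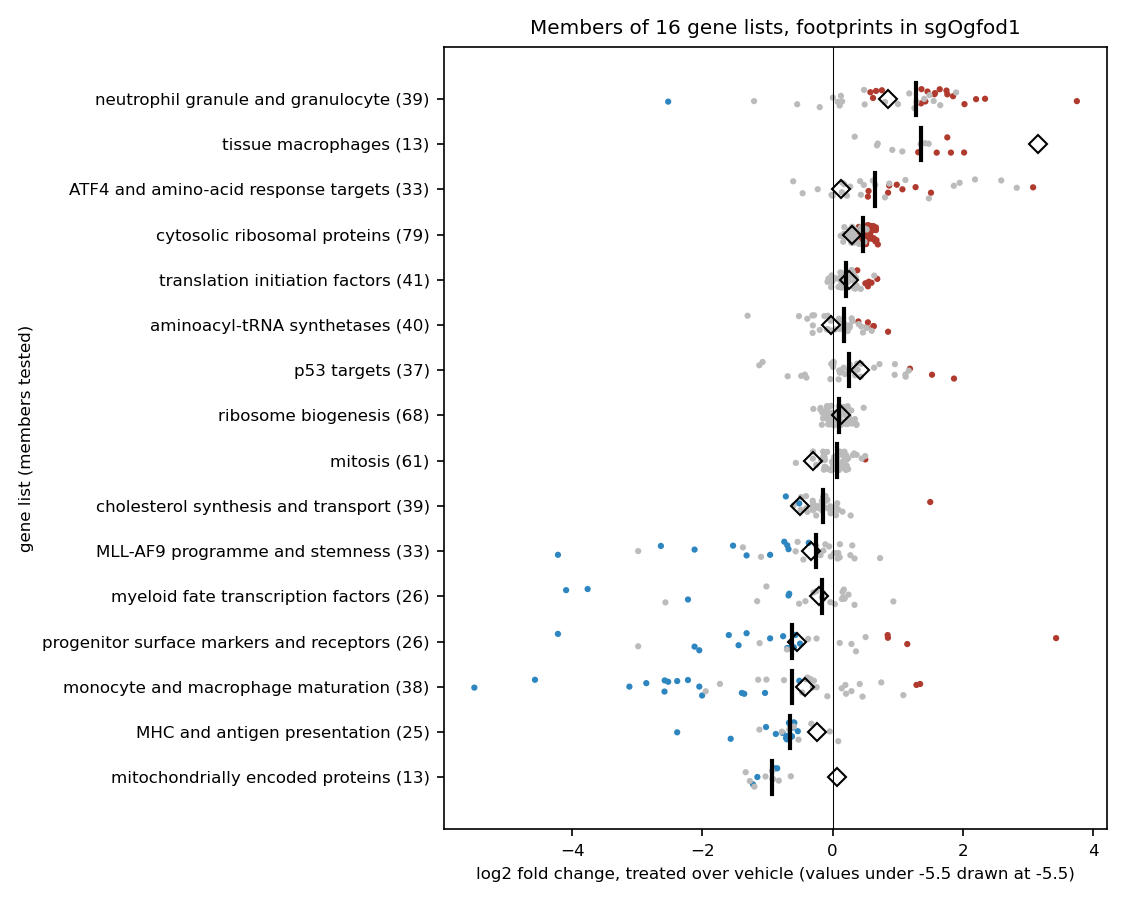
Log2 fold change in footprints of every tested member of 16 gene lists (x; values under -5.5 drawn there), red called higher, blue called lower, grey not called. Black bars are list medians in sgOgfod1 cells, from 1.35 (tissue macrophages) to -0.93 (mitochondrially encoded), and open diamonds are medians of the same lists in sgScramble cells.

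The same treatment in sgScramble cells called 715 genes higher and 1178 lower (6.23% and 10.3% of those tested), with more mice. Of the 883 calls in sgOgfod1 cells 505 were also called there, which is 57.2% of the sgOgfod1 calls and 26.7% of the 1893 sgScramble calls, and all 505 had the same sign. Of the 883, 839 had the same sign and 44 the opposite one. Across 10861 genes with a mean of at least 1 CPM the log2 changes had a Spearman rho of 0.551 and a Pearson r of 0.569; the comparisons share no library, though genes are not independent.
Several lists were called more in one genotype than in the other: mitosis genes (1 higher and 0 lower of 61 in sgOgfod1, 0 and 27 in sgScramble), cholesterol genes (2 lower against 20), p53 targets (3 higher against 13), Atf4 genes (9 higher and 0 lower against 3 and 2) and antigen presentation (17 lower against 8). None of these lists had a member for which the difference itself passed the test, so the genotypes are not shown to differ in them. Other lists had similar counts in both genotypes. The granulocyte list had 18 higher in sgOgfod1 and 16 in sgScramble. Monocyte maturation had 15 and 13 lower, and progenitor surface markers 13 and 13 lower.

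The difference between the treatment effects passed the test for 3 genes (0.0261%): 1 higher in sgOgfod1 (0.00871% of those tested) and 2 lower (0.0174%), while 1047 genes had an unadjusted p under 0.05. Ahnak fell in sgOgfod1 cells and had a log2 change of 0.09 in sgScramble cells (adjusted p = 0.77). Group means were 132 CPM (vehicle) and 14.6 CPM (treated) in sgOgfod1, and 39.2 and 41.9 CPM in sgScramble (difference of log2 changes -3.27 ± 0.30, adjusted p = 0.000734). The vehicle groups also differed in level. In sgScramble the 3 vehicle libraries read 44, 36.5 and 37.2 CPM and the 4 treated libraries 35.5, 47.5, 51.5 and 33.1 CPM, which overlap.
Hmgb1, an abundant chromatin protein, had means of 219 and 161 CPM in sgOgfod1 (-0.45 ± 0.16, adjusted p = 0.103, not called) and of 95.2 and 167 CPM in sgScramble (0.81), a difference of -1.26 ± 0.21 (adjusted p = 0.0328). Tgm1, a transglutaminase, rose from 8.93, 8.43 and 9.14 CPM to 26.2 and 24.4 CPM in sgOgfod1 (1.51 ± 0.14), against means of 11.5 and 14.3 CPM in sgScramble (difference 1.19 ± 0.19, adjusted p = 0.0221). Ahnak kept its call in all 18 alternatives, Hmgb1 in 10 of 18 (largest adjusted p 0.174) and Tgm1 in 10 of 17 that gave an adjusted p (largest 0.155).
The number called also rose when treated sgOgfod1 replicate 5 was left out, to 24 higher and 41 lower, and without vehicle sgOgfod1 replicate 4 it was 1 and 29.

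Footprints mostly followed mRNA of the same mice. Of 861 calls with an mRNA value, 806 had an mRNA ratio of the same sign, and across 10530 genes the log2 changes had a Spearman rho of 0.668 and a Pearson r of 0.748. Translation efficiency changed for 17 of 15791 protein-coding genes tested, 13 higher (0.0823%) and 4 lower (0.0253%), and 929 had an unadjusted p under 0.05. Of the 883 footprint calls 6 were also called for efficiency.
Il31ra, a cytokine receptor subunit (chr13:112519898-112594360, minus strand), had near-equal footprints in both groups and less mRNA in both treated mice. Its footprints were 58.7, 62.8, 55.6, 56 and 58.7 CPM, and its mRNA 12.9, 26, 19.3, 0.854 and 2.23 CPM. Footprint-to-mRNA ratios, from the joint scaling of both assays, were 8.78, 4.48, 6.11, 141 and 57.2, so the efficiency term was 3.71 ± 0.43 (adjusted p = 0.0138).
Snx30, a sorting nexin of endosomes, had a ratio of 2.79, 3.25 and 1.92 in vehicle mice and of 9.53 and 10.4 in treated mice (1.97 ± 0.25, adjusted p = 0.00316). Mpeg1 footprints fell less than its mRNA (efficiency 1.42, adjusted p = 0.00275), and the same held for Lpl, lipoprotein lipase (1.36), and the integrin subunit Itgb7 (2.91). Tubb2a, a tubulin, and Dync1h1, the dynein heavy chain, had footprint changes of -0.22 and 0.13 that did not pass and efficiency changes of 1.41 and 1.17.
Eef1a1 had more footprints over less mRNA: 2365 to 2763 CPM in vehicle and 3237 and 4035 CPM in treated mice, against mRNA of 608 to 774 CPM and of 489 and 519 CPM (efficiency 1.07, adjusted p = 0.0215). Clec4a3, Rpl10, Krr1, Flna and Prpf8 were the other genes whose efficiency rose. Across 10793 genes efficiency had a Spearman rho of 0.121 with the number of codons. Its median was 0.215 in the longest of 10 groups ordered by length. The part of length in these calls was not tested. Over 11 alternatives the efficiency call was kept in 9 for Il31ra, Mpeg1, Kitl and H2-Q10, in 8 for Snx30, Tubb2a and Lpl, in 6 for Dync1h1, in 3 for Itgb7 (largest adjusted p 0.72) and in 2 for Eef1a1 (largest adjusted p 0.63).
Kitl, the stem cell factor ligand, fell in efficiency (-4.08, adjusted p = 0.00582); its footprints went from 69.5, 51.6 and 32 CPM to 11.8 and 13.6 CPM, and its mRNA was low throughout (0.197, 0.414, 0.121, 1.04 and 1.23 CPM). H2-Q10, a class I relative with near-copies, fell by 2.87 (adjusted p = 0.00582). Hist1h4a and Pcdh11x, the other genes called lower, are listed at 0 in mRNA of 3 and of 2 vehicle mice, so no fold is given.
The count of efficiency calls rested on single mice. It was 0 higher and 6 lower without treated replicate 4, and 3 and 3 without vehicle replicate 3.

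**Figure D5:**
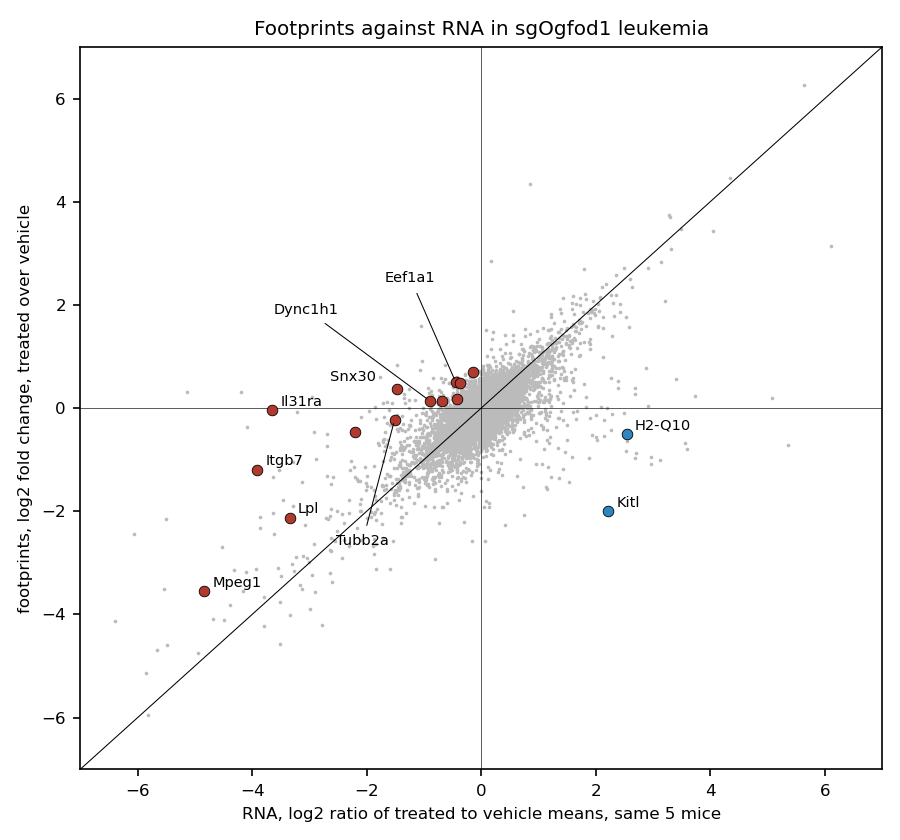
Log2 change in mRNA (x) and in footprints (y) of the same 5 mice, 1 point per protein-coding gene, with the diagonal for equal change; genes averaging under 1 CPM are drawn only where called, axes end at ±7, and 2 genes above that level lie outside. Red and blue mark 15 of the 17 genes whose efficiency rose or fell (Pcdh11x lies past the axis and Hist1h4a has no finite mRNA ratio); Il31ra lies near 0 in footprints and near -3.65 in mRNA.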

How the data were processed

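Ribosome footprints and mRNA (Smart-seq2, a full-length protocol without strand or molecular identifiers) were made from the same lysate of sorted GFP-positive marrow cells, per the labels' protocols. The deposited values are raw counts of reads per gene made by the authors. The submitters' processing notes name featureCounts, STAR, Bowtie2, cutadapt and SAMtools, and the builds mm10 and GRCm38. Their versions, the strand setting and how reads that map to several genes were handled are not given in the sources used here, which matters for short footprints of near-identical genes.

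The deposited counts were tested with edgeR 4.0.16 (R 4.3.3; TMM scaling, filterByExpr, robust quasi-likelihood test), with all 12 footprint libraries in 4 groups and 8 residual degrees of freedom. P-values were adjusted by the Benjamini-Hochberg method over every gene tested, and an adjusted p under 0.05 was a call; protein-coding genes are reported. Contrasts were treatment in sgOgfod1 cells, treatment in sgScramble cells and their difference. Translation efficiency was tested as the interaction of assay and group over the 24 libraries of 12 mice, with the mouse as a block. Values after ± are standard errors (SE) derived from the quasi-likelihood statistic. Each library is 1 mouse. Replicates were compared before use, and no pair agreed within sampling noise (chi-square per degree of freedom 7 to 27.5). The procedure was tested on simulated data.

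Gene types and coordinates came from a GRCm38 annotation (GENCODE) and promoters from RefSeq. Genes named were up to 14 called in each direction with the largest change, a mean of at least 10 CPM in the higher group and no overlap between groups; up to 8 in each direction for the other tests; Ogfod1; and up to 4 called members of each list with the smallest p (2 where none was called). Other list members and 7 further genes called for efficiency were chosen after their values were seen. The comparison and the lists were chosen with earlier results of these data known. Intervals and floors cover counting error alone. The intervals use counts summed over the mice of a group, so they leave out the spread between mice. PCR duplicates could not be recognised. Alternatives were size factors and the Wald test of DESeq2 1.42.0, no low-count filter, protein-coding genes alone, a term for library numbers from 17 up, a replicate block, only the 5 sgOgfod1 libraries, and each library left out in turn. Of the genes this rule picks, 2 are not reported here.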

Additional observations from a re-analysis of the deposited data

Results flagged for a closer look

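For 3 genes the effect of treatment on footprints differed between sgOgfod1 and sgScramble cells by the test of the difference itself (edgeR, adjusted p under 0.05). Tgm1 had a difference of log2 changes of 1.19 (1.51 in sgOgfod1 and 0.32 in sgScramble cells). Hmgb1 had a difference of -1.26 (-0.45 and 0.81). Ahnak had a difference of -3.27 (-3.17 and 0.09). With 2 and 3 mice, the sgOgfod1 groups have too few values for Dixon's test of an outlying one.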

How the results depend on the processing

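For treatment in sgOgfod1 cells the counts (higher, lower) were 324 and 535 with DESeq2 size factors, 358 and 521 with DESeq2, 427 and 689 with no low-count filter, 497 and 444 with protein-coding genes alone, 4 and 1 with the library-number term and 39 and 74 with only the 5 libraries. Leaving out 1 library gave 170 to 289 higher and 340 to 579 lower.
For the difference between genotypes the counts were 1 and 2 with DESeq2 size factors and with protein-coding genes alone, 5 and 16 with DESeq2, 35 and 125 with no filter and 0 and 1 with the library-number term. Leaving out 1 library gave 0 to 24 higher and 1 to 41 lower.
For translation efficiency they were 7 and 4 with DESeq2 size factors, 40 and 12 with DESeq2, 37 and 51 with no filter, 55 and 12 with protein-coding genes alone and 2 and 0 with the library-number term. Leaving out 1 mouse gave 0 to 10 higher and 3 to 6 lower. The cause of these shifts was not tested.

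Same replicate numbers did not pair the mice: deviations from the group means had r of -0.0485 (replicate 4) and -0.0598 (replicate 5) over 10836 genes. With a replicate block the counts were 249 and 441 for treatment and 3 and 38 for the difference. Without the mouse block the efficiency counts were 2 and 3.

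No called gene changed sign. Ogfod1 (-0.06) was 0.024 with protein-coding genes alone and -0.64 to 0.36 with 1 library left out (above 0 without vehicle replicate 3 or 4 or treated replicate 5); Hmgn1 (-0.58) was 0.17 with the library-number term, and Nkg7 (-0.42) was -1.48 to 0.18 (without treated replicates 4 and 5 in turn). None of these 3 was called. With 2 treated mice and totals of 5.71 to 14.6 M counts, low genes and small shifts are the least certain; a gene absent from the calls is not shown to be unchanged.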

Other observations

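Codon content and length had weak relations to the change in footprints. Across 10706 genes the log2 change had a Spearman rho of 0.0809 with the share of leucine, isoleucine and valine codons, 0.131 with that of isoleucine alone, 0.0022 with leucine and 0.0476 with valine; in sgScramble cells the rho with the summed share was -0.0242. In 10 groups of equal size ordered by that share, the median log2 change was -0.112 in the lowest and -0.0128 in the highest. With the number of codons the rho was -0.157 over 10793 genes for footprints and 0.121 for efficiency. For the mRNA ratio of the same mice it was -0.246 over 10463 genes. Of 10 groups ordered by length, the shortest (21 to 165 codons) had a median log2 change of 0.0687, with 76 genes higher and 28 lower. The longest had a median of -0.0969 in footprints and 0.215 in efficiency, with 24 higher and 62 lower. The median log2 ratio of mRNA was -0.182 in the longest group and 0.147 in the shortest. Genes are not independent replicates, and these values are descriptions.

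Genes of sugar metabolism and iron handling held a few calls that the report does not describe. G6pdx, the first enzyme of the pentose phosphate pathway, rose from 182, 138 and 163 CPM to 290.1 and 241 CPM (0.72 ± 0.13, adjusted p = 0.00398). Of 31 genes of glycolysis and the pentose phosphate pathway 4 rose and 1 fell; the others that rose were the glucose transporter Slc2a3 (1.60), Gapdh (0.51) and Ldha, lactate dehydrogenase (0.44), and Pfkl fell (-0.48). Slc40a1, the iron exporter ferroportin, read 33, 32.6, 24.8, 99.2 and 49.5 CPM (1.31 ± 0.28, adjusted p = 0.017). Fbxl5, an iron-sensing ubiquitin ligase subunit, rose from 11.5, 12.4 and 14.4 CPM to 25 and 25.6 CPM (0.97 ± 0.19, adjusted p = 0.00536). In G6pdx, Slc40a1 and Fbxl5 the treated mice lay above the vehicle mice.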
